A study of Rattus norvegicus with 11 samples.

Results

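Freshly isolated alveolar type I (TI) cells were compared with freshly isolated type II (TII) cells from rat lung. The comparison holds 8 of the 11 arrays of the study: 4 described as RNA from freshly isolated TI cells and 4 described as RNA from freshly isolated TII cells, all labelled day 0. The other 3 arrays held TII cells on day 7 of culture and did not enter the group means compared. They entered the estimate of the spread between arrays and the choice of the probe set read for each gene. They also entered the scaling alternatives and the filter on dim probe sets. Total RNA was copied to cDNA, labelled with biotin and hybridised to Affymetrix rat arrays. No treatment or allele is labelled. Groups were taken from the sample descriptions, because the source field reads TI cells for every array, and the markers below were checked against these groups. The sources used here give no strain, age or isolation procedure. No label ties the replicate arrays to different animals, and the p-values therefore measure only the spread between these arrays.

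The alveolar surface is covered mostly by TI cells, which are very thin, rich in caveolae and lie beside the capillaries to let gas diffuse. TII cells are cuboidal. They make, store and secrete surfactant, the lipid and protein film that keeps alveoli open, release defence proteins, and act as progenitors of both epithelial types. Podoplanin, aquaporin 5, caveolin 1 and the receptor Ager mark TI cells, and surfactant proteins mark TII cells.

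All values are the deposited log2 signals, and all differences are fresh TI minus fresh TII on that log2 scale, between means of 4 and 4 arrays. Each ± after a difference is the standard error of the model. That error pools the spread within every group, the cultured TII cells included, so it is not the scatter of the fresh arrays alone. For Igfbp2 it was 0.31, against 0.11 when the fresh arrays were fitted alone. Array values are given in the order of arrays 1 to 4. Every adjusted p comes from limma with Benjamini-Hochberg adjustment over 8740 probe sets, and a probe set or gene was called at an adjusted p under 0.05. A gene was read from its brightest probe set. In bulk RNA, fewer cells of a type and less RNA per cell cannot be told apart, so each difference below is one between isolates.

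Most of the measured genes separated the isolates, and more genes were at least 2-fold apart on the TII side than on the TI side. Of 8740 probe sets 4783 were called, which is 54.7%. Of 4736 genes 2568 were called (54.2%): 1565 were higher in fresh TI cells (33.0%) and 1003 were lower (21.2%). At least 2-fold apart were 95 genes that were higher (2.01%) and 237 that were lower (5.0%). The arrays of the groups did not overlap for 2389 genes (50.4%). These shares are the background against which the counts of every gene list are to be read. The median gene was 0.11 higher in fresh TI cells, and the split of small differences depended on the scaling. With the spread of the arrays matched, 1243 genes were higher and 1075 lower and the median was 0.05. With each array centred on its median, 1233 were higher and 1112 lower. Without the dimmer probe sets the split was 810 and 780.

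Over all tested probe sets, the arrays of fresh TI cells correlated with each other at a Pearson r of 0.978 to 0.996, with 0.995 to 0.998 among fresh TII arrays and 0.918 to 0.947 between them. Array medians lay between 5.43 and 5.51. The SD over the probe sets of an array was 1.77 to 1.85 in fresh TI and 1.92 to 1.95 in fresh TII cells, with no overlap. The 3 antisense beta-actin control probe sets averaged 6.02 to 6.30 in fresh TI and 5.70 to 5.84 in fresh TII cells, also with no overlap. The part of these array-wide differences in the calls was not tested beyond the scaling alternatives. The gap between the beta-actin control's 3' and 5' probe sets, which widens as RNA degrades, overlapped between groups: it was 0.21 to 0.42 in fresh TI and 0.32 to 0.43 in fresh TII cells.

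**Figure D1:**
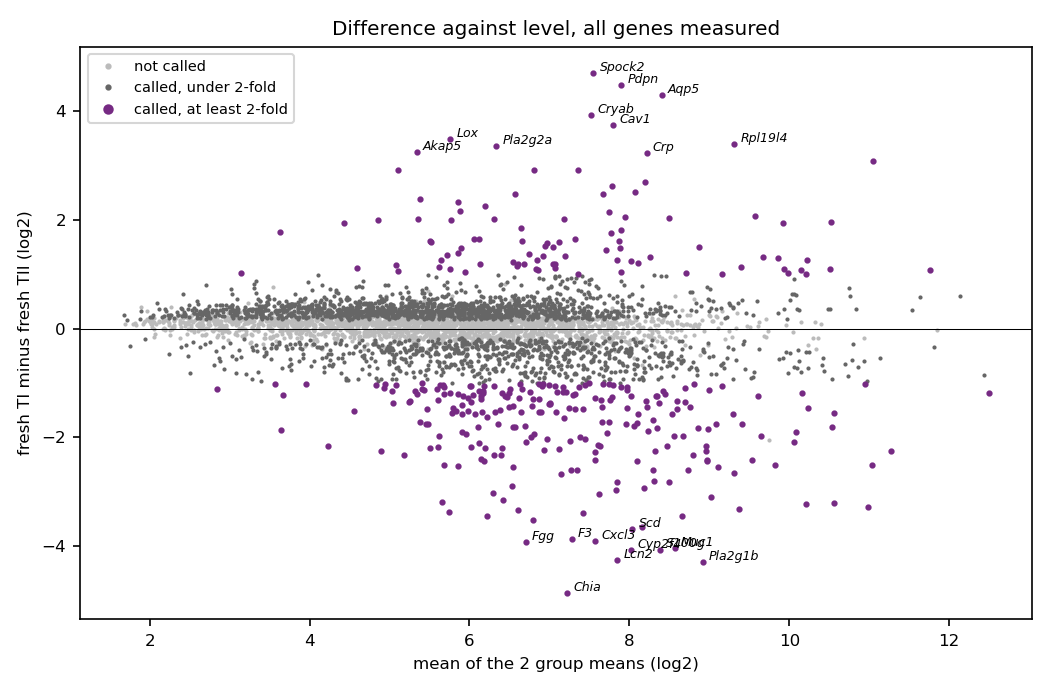
Each point is 1 of the 4736 genes, with its mean level (x axis, log2) and its difference between fresh TI and fresh TII cells (y axis, log2); purple points were called and at least 2-fold apart, and the 10 highest and 10 lowest genes are labelled. The 237 genes at least 2-fold lower in fresh TI cells outnumber the 95 that were higher, while small differences lean above 0.

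Markers of TI cells were higher on the arrays labelled TI. The type I list had 23 measured genes, 17 higher and 2 lower, with a median difference of 1.03 against 0.11 for all genes, and 12 were at least 2-fold higher. Pdpn (podoplanin, Entrez gene 54320), a mucin-type glycoprotein on the TI surface, read 5.75, 5.66, 5.57 and 5.65 in fresh TII cells and 10.03, 10.12, 10.23 and 10.17 in fresh TI cells. Spock2 (361840), a secreted matrix proteoglycan, read 5.12, 5.28, 5.21 and 5.20 in fresh TII and 9.95, 9.99, 9.81 and 9.84 in fresh TI cells. Both genes were level within a group and far apart between groups, by 4.48 ± 0.08 for Pdpn (22.3-fold, adjusted p = 1.1e-12) and 4.70 ± 0.19 for Spock2 (25.9-fold, adjusted p = 1.34e-09). Aqp5 (25241), a water channel, read 6.17 to 6.32 in fresh TII and 10.38 to 10.70 in fresh TI cells, and another probe set differed by 3.90. Ager (81722), a pattern receptor that is abundant in lung, was well above the array medians in both isolates, at 9.61, 9.51, 9.45 and 9.46 in fresh TII and 12.62, 12.53, 12.56 and 12.64 in fresh TI cells.

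Several TI markers differed between the TI arrays themselves. Cav1 (25404), the coat protein of caveolae, read 9.28, 9.49, 10.12 and 9.80 in fresh TI cells against 5.72, 5.96, 6.02 and 5.99 in fresh TII cells. Akap5 (171026), an anchor for protein kinase A, read 6.5, 6.95, 7.47 and 6.90 in fresh TI against 3.62, 3.80, 3.81 and 3.64 in fresh TII cells. TI array 3 was the highest for both, and no TI array came near the TII arrays. Igfbp6, an insulin-like growth factor binding protein, read 9.11, 9.35, 8.61 and 8.59 in fresh TI and 6.26 to 6.63 in fresh TII cells, so here TI arrays 1 and 2 were the higher ones. The mean over probe sets moved several of the genes below by more than 1.5 times, so their other probe sets are given. Msn (moesin), which links actin to the membrane, differed by 1.86 ± 0.15, although its other probe set, at 0.14, was not called. Pmp22, a junction-associated membrane protein, differed by 1.51 ± 0.25, with 0.31 on its other probe set.

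The other members differed less. The basement membrane chain Col4a3 was higher by 0.85 ± 0.14, the protease inhibitor Timp3 by 0.94 ± 0.09, the angiogenic factor Vegfa by 0.97 ± 0.07 (2.11, 2.75 and 2.44 on its other probe sets), the adhesion molecule Icam1 by 1.08 ± 0.09 and keratin Krt19 by 0.53 ± 0.16. Sema3a, a secreted guidance protein, was dim in both isolates, at 2.44 to 2.70 in fresh TII and 3.41 to 3.90 in fresh TI cells. Sec14l3, a lipid transfer protein, was higher by 1.03 ± 0.30 and the cytochrome Cyp4b1 by 0.48 ± 0.18. The Cyp4b1 call was lost without TI array 3, TI array 4, TII array 1 or TII array 3. The 2 lower members were the ATP-gated channel P2rx4 at -0.31 ± 0.12 and the G protein subunit Gnb1 at -0.25 ± 0.10. Other Gnb1 probe sets stood at -0.48 and, not called, at -0.19. The P2rx4 call was lost without any 1 of TI arrays 1, 3 and 4 or TII arrays 1 and 2, and the Gnb1 call without any 1 of TI arrays 1, 2 and 3 or TII arrays 1, 2 and 4. Igfbp2 at 0.38 ± 0.31, Tspan8 at -0.20 ± 0.18 and the ATP receptor P2rx7 at 0.26 ± 0.15 were not called, although P2rx7 was called at 0.37 without TI array 3 and Igfbp2 at 0.38 ± 0.11 when the 8 fresh arrays were fitted alone. Scnn1a, the alpha subunit of the epithelial sodium channel, was not called at 0.32 ± 0.20 (adjusted p = 0.187), and TII array 3 weighed on that: its values in fresh TII cells were 7.77, 7.35, 8.41 and 7.32. Without that array Scnn1a was higher by 0.55 (adjusted p = 0.00587).

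**Figure D2:**
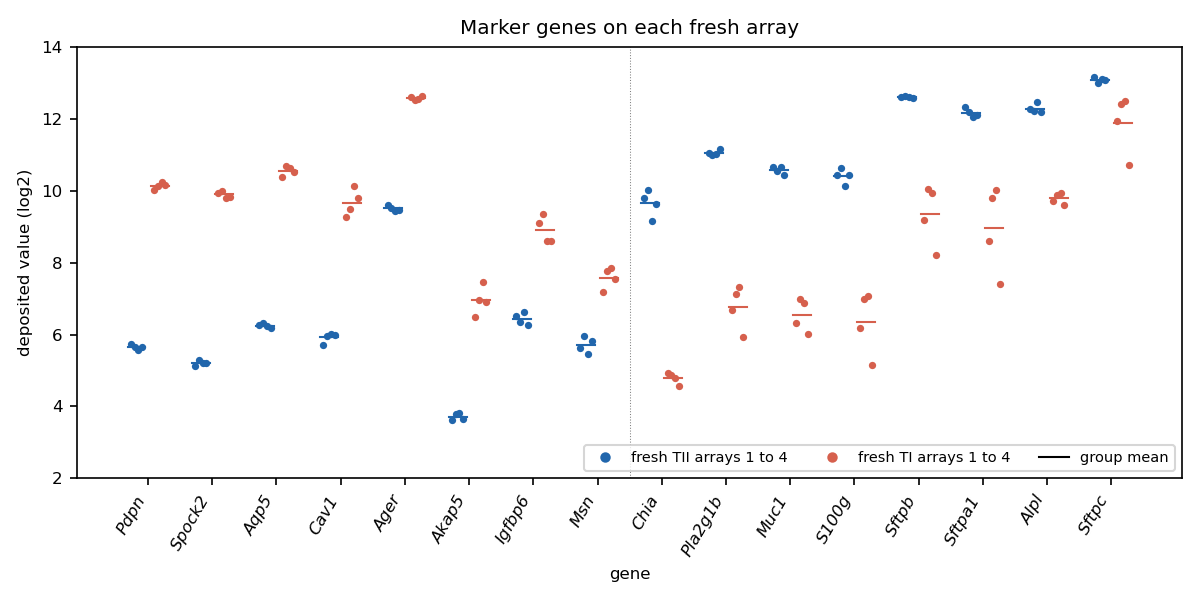
Deposited log2 value (y axis) of 16 marker genes (x axis) on each fresh TII array (blue) and each fresh TI array (red), with a line at each group mean; TI markers stand left of the dotted line and TII markers right of it. The groups do not overlap for any gene drawn, and the TI arrays scatter more for the TII markers, from 7.40 to 10.02 for Sftpa1, than for Pdpn, from 10.03 to 10.23.

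Markers of TII cells were lower on the arrays labelled TI, and their signal there varied from array to array. The type II list had 32 measured genes, 26 lower and 2 higher. The median difference was -1.80 and 19 were at least 2-fold lower. Chia (113901), a chitinase of the airspace, read 9.79, 10.02, 9.16 and 9.64 in fresh TII and 4.92, 4.88, 4.78 and 4.58 in fresh TI cells, a difference of -4.86 ± 0.15 (29.1-fold lower, adjusted p = 2.7e-10). Its values were low on all 4 TI arrays alike. That was not so for the surfactant genes. Sftpa1 (24773), the main surfactant collectin, read 12.32, 12.20, 12.06 and 12.12 in fresh TII and 8.61, 9.80, 10.02 and 7.40 in fresh TI cells. Sftpb, which spreads the lipid film, read 12.59 to 12.63 in fresh TII and 9.20, 10.04, 9.94 and 8.22 in fresh TI cells. Sftpc, the hydrophobic surfactant peptide, had a mean of 13.09 ± 0.07 (SD, n = 4) in fresh TII and 11.94, 12.41, 12.50 and 10.73 in fresh TI cells. In each case TI arrays 2 and 3 were highest, array 1 lay between and array 4 was lowest, and none overlapped with fresh TII cells. Without TI array 4 the differences were -2.70 ± 0.34 for Sftpa1, -2.89 ± 0.16 for Sftpb and -0.80 ± 0.12 for Sftpc, all called, against -3.21, -3.27 and -1.19 with it. The fresh TII mean of Sftpc lay near the highest value on any array, 13.16. Whether that top of the range limited its difference was not tested.

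The same order of TI arrays recurred in other TII markers. Pla2g1b, a secreted phospholipase A2, read 6.69, 7.14, 7.31 and 5.93 in fresh TI cells against a mean of 11.06 ± 0.08 (SD, n = 4) in fresh TII cells. S100g, a calcium buffer, read 6.19, 6.98, 7.07 and 5.14 against 10.14 to 10.62, and the membrane mucin Muc1 read 6.32, 6.98, 6.87 and 6.02 against 10.44 to 10.67. Scd, which desaturates fatty acids, read 5.97, 6.59, 6.5 and 5.72 against 9.30 to 10.16. Lcn2 (lipocalin), an iron-binding defence protein, differed by -4.26 ± 0.48, the surfactant collectin Sftpd by -1.81 ± 0.25 and the fatty acid carrier Fabp5 by -2.25 ± 0.34. Alkaline phosphatase Alpl was steadier, at 9.72, 9.87, 9.94 and 9.61 in fresh TI against 12.20 to 12.46 in fresh TII cells. Lyz2 (lysozyme), which macrophages make too, read 12.07, 12.71, 12.49 and 10.77 in fresh TI and 12.72 to 12.98 in fresh TII cells. Its difference of -0.85 ± 0.33 (adjusted p = 0.0439) was -0.43 (adjusted p = 0.0592) without TI array 4. Its call was also lost without TI array 1 or without any 1 of the TII arrays, at adjusted p up to 0.0916, and with the spread of the arrays matched.

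The list also held transcription factors. Nkx2-1, which specifies lung epithelium, differed by -0.52 ± 0.11 and was not called after quantile normalization (-0.24). Foxa2, which acts with it on surfactant genes, differed by -0.81 ± 0.12, Cebpa by -0.88 ± 0.08 and Cebpd by -1.36 ± 0.19. One other probe set each of Nkx2-1, Cebpa and Cebpd was not called. Fgfr2, the receptor for FGF7 and FGF10, differed by -1.80 ± 0.13, and its other probe sets ran from -1.27 to, not called, 0.14. Kcnj15, a potassium channel, differed by -2.60 ± 0.13 and the alarmin Il33 by -2.33 ± 0.14. Slc12a2, the sodium-potassium-chloride cotransporter, differed by -2.43 ± 0.16, while 1 of its other probe sets was called the other way, at 0.30. Cftr and Slc34a1 were higher, by 0.18 ± 0.07 and 0.23 ± 0.08, and another Slc34a1 probe set was not called at 0.14. Cftr lost its call without any 1 of TI arrays 1, 2 and 4 or of the TII arrays, and Slc34a1 lost it without TI array 4 or TII array 2. The 4 members not called were Cd36, Ctsl, Pgc and Erbb3. Cd36, at -0.61, was called under some alternatives, such as the 8 fresh arrays alone.

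The marker lists of the other cells of the lung were read on each array, as the mean of their members. Macrophage markers averaged 5.93, 6.01, 5.95 and 5.62 in fresh TI and 5.48 to 5.59 in fresh TII cells. Of 13 measured, 4 were higher and 1 lower, and without TI array 4 the number higher was 6. The lysosomal protease Ctss read 7.19, 7.68, 7.74 and 6.01 in fresh TI and 5.64 to 6.38 in fresh TII cells, with overlap. Its call (1.23 ± 0.41, adjusted p = 0.0234) was lost without any 1 of TI arrays 1, 2 and 3 or of TII arrays 2 and 4, at adjusted p up to 0.0631. Lgals3, on the same list, read 9.09, 9.53, 9.39 and 7.48 in fresh TI and 8.18 to 8.32 in fresh TII cells. It was not called (0.61 ± 0.39), but without TI array 4 it was higher by 1.07 (adjusted p = 0.00324). C1qb was higher by 0.47 ± 0.08 and Cd14 differed by -0.46 ± 0.15. The Cd14 call was lost without TI array 1 or TII array 1. The order of TI arrays for Ctss and Lgals3 was that of the surfactant genes, and the part of other cells in either pattern was not tested.

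Fibroblast and smooth muscle markers averaged 6.22 to 6.51 in fresh TI and 5.56 to 5.78 in fresh TII cells. Of 26 measured, 15 were higher and 0 lower, or 12 and 0 without TI array 4, and 7 were at least 2-fold higher. Col3a1, a fibrillar collagen, read 9.35, 10.06, 9.01 and 8.92 in fresh TI against 7.04, 6.44, 7.27 and 6.53 in fresh TII cells. Eln (elastin) read 8.88, 9.48, 8.41 and 8.47 against 6.81 to 7.16. Both were highest on TI array 2, and neither overlapped. The endothelial list averaged 5.66 to 5.93 in fresh TI and 5.46 to 5.56 in fresh TII cells, with 9 of 15 higher and 1 lower. Aqp1, a water channel of endothelium, read 6.82, 7.12, 6.23 and 6.10 in fresh TI and 4.0 to 4.28 in fresh TII cells, while the vasoconstrictor peptide Edn1 differed by -1.71 ± 0.18. The other higher endothelial members, of which Icam2 led at 0.48 ± 0.07, were less than 2-fold apart.

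Airway markers split. Of 13 measured, 6 were lower and 6 higher, and the 4 that were at least 2-fold apart were all lower. Scgb1a1 (25575), the secretoglobin of club cells, read 11.15, 11.08, 10.84 and 11.02 in fresh TII and 7.73, 7.81, 7.89 and 7.42 in fresh TI cells, a difference of -3.31 ± 0.13. Cyp2f4, a club cell cytochrome, read 9.94 to 10.27 against 5.82 to 6.13, and the retinal dehydrogenase Aldh1a1 read 10.41 to 10.74 against 7.33 to 7.56. The higher ones were small, led by basal keratin Krt5 at 0.45 ± 0.10. Of 19 lymphocyte markers 6 were higher and 0 lower, with Cd4 the furthest apart at 0.41 ± 0.09. Neutrophil and mast cell markers were higher for 8 of 14, or 4 of 14 with the spread of the arrays matched, led by S100a9. Neuroendocrine and nerve markers were higher for 8 of 19, or 5 of 19 with the spread of the arrays matched. Of 5 mesothelial markers 2 were higher and 2 lower, with keratin Krt18 at -1.34 ± 0.22, and without TII array 3 the number higher was 0.

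Haemoglobin stood apart on 1 array. Hbb (beta globin) read 8.45, 8.52, 10.14 and 8.36 in fresh TII and 7.91, 7.14, 7.12 and 7.99 in fresh TI cells, and Hbb-b1 read 8.12, 8.14, 9.64 and 8.08 against 7.84, 7.31, 7.24 and 7.92. TII array 3 was the high one. The differences, -1.33 ± 0.34 and -0.92 ± 0.30, were -0.91 and -0.54 without it, both still called. The call of Hbb-b1 was lost without TI array 2 (adjusted p = 0.0506) or TI array 3 (adjusted p = 0.0549). Of 7 red blood cell markers 3 were lower and 4 higher, or 3 and 3 after centring on the median.

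**Figure D3:**
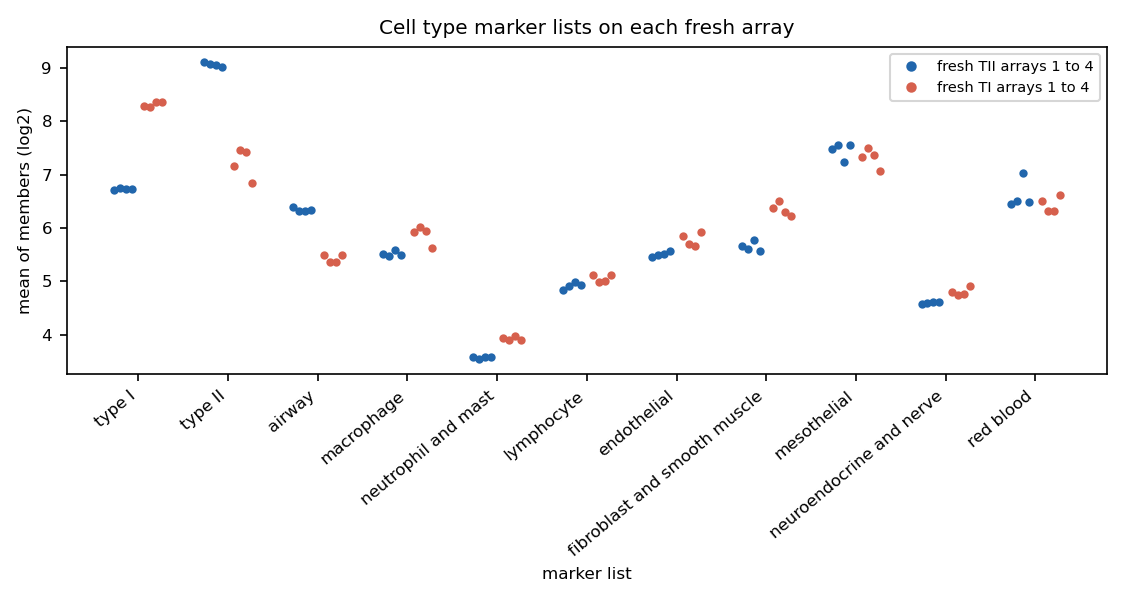
Mean log2 value of the measured members (y axis) of 11 cell type marker lists (x axis) on each fresh TII array (blue) and fresh TI array (red). Type I, fibroblast and smooth muscle, and endothelial lists are above fresh TII cells on all 4 TI arrays. So are the macrophage, neutrophil and mast cell, and neuroendocrine and nerve lists. The type II and airway lists are below fresh TII cells on all 4. The macrophage list is lowest on TI array 4, at 5.62, among the TI arrays.

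Across 55 lists of pathways and cell types, some lists stood far from the median of all genes and others split. The largest shifts toward TII cells beyond the type II list were in immediate early response, cholesterol synthesis, ribosomal protein, circadian clock and chaperone genes, with medians from -0.93 to -0.39. Toward TI cells, beyond the type I list, the annexin and S100, macrophage, caveolae and membrane scaffold, and extracellular matrix lists had medians of 0.73, 0.43, 0.37 and 0.36. Of the 13 macrophage markers measured only 38.5% were called, against 54.2% of all genes.

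**Figure D4:**
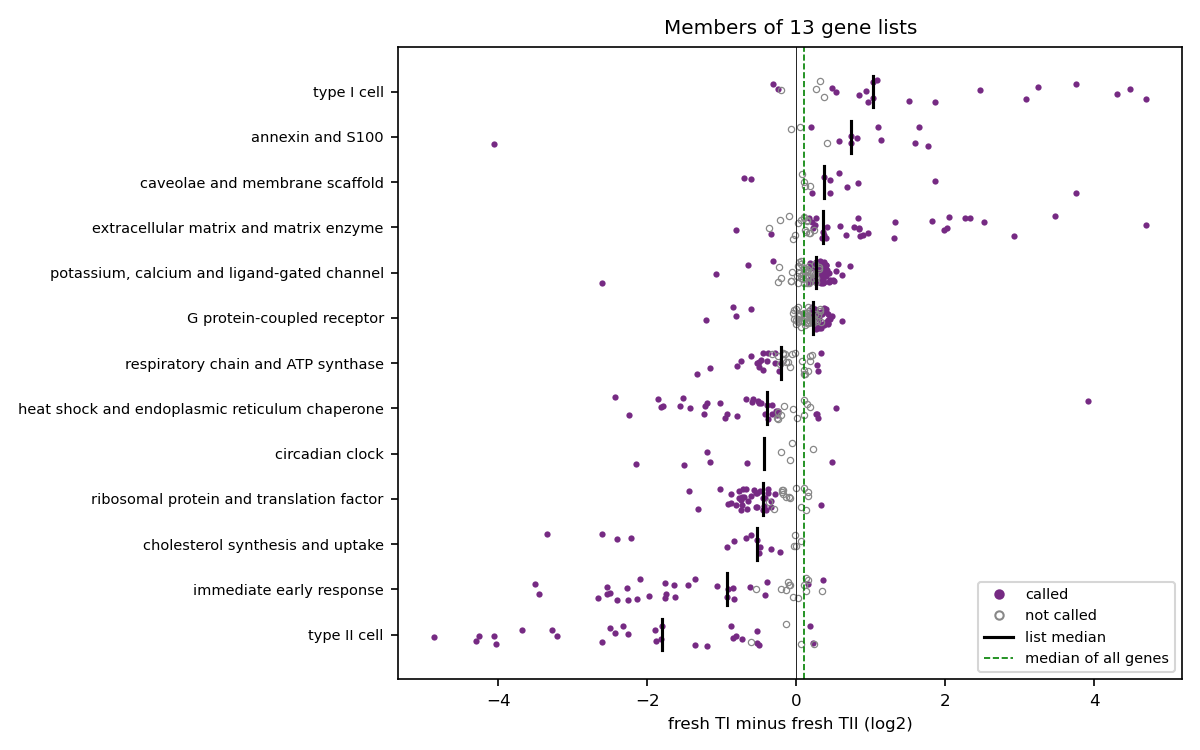
Each point is the log2 difference between fresh TI and fresh TII cells (x axis) of 1 measured member of 13 gene lists (y axis), filled where called, with a bar at the list median and a dashed line at the median of all genes, 0.11. Immediate early genes spread to -3.51, while most channel and receptor genes lie near the median of all genes, with single members such as Kcnj15, at -2.60, far below it.

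Genes of the extracellular matrix were mostly higher in fresh TI cells. Of 49 measured, 31 were higher and 2 lower, and 12 were at least 2-fold higher against 0 at least 2-fold lower. Lama3 (307582), the alpha chain of epithelial laminin, read 3.33, 4.01, 3.49 and 3.75 in fresh TII and 6.46, 6.60, 6.73 and 6.47 in fresh TI cells, a difference of 2.92 ± 0.13. Lox, which cross-links collagen and elastin, read 3.87, 3.94, 4.25 and 4.0 against 7.62, 7.78, 7.48 and 7.11, with smaller differences of 1.23, 0.75 and 0.94 on its other probe sets. Fbln5, an elastic fibre glycoprotein, read 4.6, 4.80, 4.81 and 4.56 against 6.79, 7.16, 7.29 and 6.85. All 3 were near the dim end in fresh TII cells and stood apart on every TI array. The hydroxylase subunit P4ha1 was lower, by -0.81 ± 0.09. Of the 12 matrix genes that were at least 2-fold higher, 6, among them Col3a1, Eln, Lox and Fbln5, also stand on the fibroblast and smooth muscle list, whose level was higher on every TI array; its part in the matrix result was not tested.

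Proteases and their inhibitors were higher for 23 of 50 and lower for 6. Wfdc1, a secreted inhibitor, read 5.40, 5.41, 5.27 and 5.31 in fresh TII and 8.27, 8.06, 8.16 and 8.55 in fresh TI cells. Capn2, the large subunit of a calcium-activated protease, read 5.49, 5.37, 5.36 and 5.12 against 7.74, 7.95, 8.07 and 7.48. Timp2, an inhibitor of metalloproteinases, was among the steadiest, at 8.92 to 9.0 against 10.84 to 10.97. On the TII side stood Anpep (aminopeptidase N), at -2.82 ± 0.15 with -1.50 and -0.56 on its other probe sets, and Serpine2 at -1.15 ± 0.08.

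Adhesion molecules went both ways, with 15 of 31 higher and 8 lower. Lgals1 (56646), a galactoside-binding lectin, read 7.06, 6.72, 6.92 and 6.68 in fresh TII and 9.67, 9.98, 9.26 and 9.24 in fresh TI cells, a difference of 2.70 ± 0.16. The tetraspanin Cd9 read 8.42 to 8.63 against 10.43 to 10.83. Gpc3 (glypican 3), a surface proteoglycan, read 6.70, 6.66, 6.89 and 6.44 against 9.11, 9.67, 8.66 and 7.84, with 0.85 and 0.43 on its other probe sets and the widest scatter of these lectin, tetraspanin and glypican genes among TI arrays. The syndecans Sdc4 and Sdc1, also surface proteoglycans, differed the other way, by -1.55 ± 0.10 and -1.12 ± 0.11, with 1 other Sdc4 probe set not called at -0.03. Junction genes split evenly, 7 of 16 higher and 7 lower, but both that were at least 2-fold apart were lower. Cldn3, a tight junction claudin, read 10.70, 10.80, 10.67 and 10.79 in fresh TII and 8.20, 8.40, 8.50 and 8.22 in fresh TI cells. Pvr, a nectin-like adhesion receptor, differed by -1.37 ± 0.13 and Cldn7 by -0.92 ± 0.11, against 0.64 ± 0.17 for the scaffold Tjp1.

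The membrane and cytoskeleton followed a similar division. Of 15 caveolae and membrane scaffold genes 9 were higher and 2 lower, the latter being the microvillus linker Ezr at -0.70 ± 0.17 and Ank3 at -0.60 ± 0.09, of which 2 other probe sets were not called. Of 14 annexin and S100 genes 10 were higher and 1 lower: S100a10, the annexin A2 partner, read 5.97 to 6.60 in fresh TII and 7.52 to 8.28 in fresh TI cells, and Anxa5 read 8.71 to 8.96 against 9.86 to 10.15. S100a9 read 2.55 to 2.93 against 4.41, 4.86, 5.40 and 3.41. It is also a neutrophil marker and was lowest among TI arrays on array 4. Of 68 actin, myosin and intermediate filament genes 28 were higher and 10 lower. Pdlim3, an actin-associated adaptor, read 4.65, 4.77, 4.85 and 4.89 against 6.92, 6.94, 7.00 and 6.96, and the tropomyosin Tpm3 differed by 1.30 ± 0.07, with 2 of its other probe sets not called. Vim (vimentin) read 6.98, 6.66, 7.37 and 6.55 in fresh TII and 8.81, 9.44, 9.09 and 7.26 in fresh TI cells, where array 4 overlapped with fresh TII cells.

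Few ion transport genes were at least 2-fold apart, as among all genes, of which 2.01% were higher and 5.0% lower by that measure. Of 58 sodium and chloride channel and pump genes 26 were higher and 7 lower, and besides the aquaporins none was at least 2-fold higher. The sodium pump subunit Atp1b1 read 10.18, 10.10, 10.48 and 9.99 in fresh TII and 7.61, 7.93, 7.84 and 7.63 in fresh TI cells, and Atp1b3 differed by -1.02 ± 0.13. Of 103 potassium, calcium and ligand-gated channel genes 61 were higher and 4 lower, and 0 were at least 2-fold higher. That count was 40 and 5 with the spread of the arrays matched, and the highest, Kcne1, stood at 0.72 ± 0.13, with another probe set not called at 0.14. Of 85 G protein-coupled receptors 40 were higher and 4 lower, or 27 and 4 after centring on the median, with 0 at least 2-fold higher. The lower ones included the nucleotide receptor P2ry2 at -1.21 ± 0.16 and the adenosine receptor Adora2b at -0.85 ± 0.12. Carriers were higher for 29 of 82 and lower for 14, with the glucose transporter Slc2a1 at -2.33 ± 0.15 (-0.64 on its other probe set), the peroxisomal transporter Abcd3 at -1.82 ± 0.10 (not called on its other probe set) and the glucose cotransporter Slc5a1 at 0.91 ± 0.07.

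Immediate early genes, which cells switch on within minutes of a stimulus were the list furthest toward TII cells after the type II markers. Of 42 measured, 27 were lower and 2 higher, 20 were at least 2-fold lower, and the median was -0.93. Egr2 (114090), a zinc finger transcription factor, read 8.76, 8.69, 8.12 and 8.64 in fresh TII and 4.95, 5.03, 5.35 and 4.84 in fresh TI cells, a difference of -3.51 ± 0.14 (11.4-fold lower). Atf3, a stress-induced repressor, read 10.61, 10.44, 10.09 and 10.40 against 7.01, 7.15, 7.04 and 6.54. Myc read 7.75 to 7.89 against 5.22 to 5.36, and the orphan receptor Nr4a1 read 10.44 to 10.73 against 7.73 to 8.19. None of these overlapped, and the spread within a group was small beside the gap. Tsc22d1, a leucine zipper regulator, differed by -2.54 ± 0.11, Klf6 by -1.97 ± 0.11 and Klf4 by -1.64 ± 0.11. Of the 2 higher members, Ier5 stood at 0.36 ± 0.08 (not called at 0.14 on another probe set) and Egr4 at 0.16 ± 0.06, with another Egr4 probe set called lower at -0.22. The Egr4 call was lost without any 1 of TI arrays 1, 2 and 4 or of the TII arrays.

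Promoters of this group were read from RefSeq (assembly GRCr8) to show what sequence lies before members that were lower together. The CArG box, the element bound by serum response factor, was searched in the 250 bases before the start on both strands. It was found in 5 of 31 immediate early promoters (16.1%), those of Dusp5, Egr1, Egr2, Klf6 and Zfp36, against 412 of 27457 promoters (1.5%). All 5 genes were lower in fresh TI cells, as were 19 of all 31 members whose promoters were available to search. The cAMP response element TGACGTCA was found in 3 of the 31 (9.68%), against 1.7% of all promoters. A match is a description of letters and not a bound site. The stretches below are the last 180 bases before the start, on the gene's strand, with the CArG box in capitals: that of Egr2 (chr20:21054442-21054621, minus strand) begins 83 bases before the start, and that of Zfp36 (chr1:92799109-92799288, minus strand), an mRNA decay factor chosen after its values were seen, begins 32 bases before it.
Egr2: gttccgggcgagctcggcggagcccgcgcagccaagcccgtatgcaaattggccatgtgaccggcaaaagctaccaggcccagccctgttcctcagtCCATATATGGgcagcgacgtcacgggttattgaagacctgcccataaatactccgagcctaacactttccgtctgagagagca
Zfp36: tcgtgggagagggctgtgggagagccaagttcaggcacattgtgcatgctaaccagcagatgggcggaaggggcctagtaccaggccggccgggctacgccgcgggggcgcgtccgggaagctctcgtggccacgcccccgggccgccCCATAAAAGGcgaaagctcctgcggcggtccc
Zfp36 read 10.28, 10.19, 10.36 and 10.32 in fresh TII and 8.55, 8.44, 8.51 and 8.63 in fresh TI cells, a difference of -1.76 ± 0.08.

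Chaperones were lower in fresh TI cells for 29 of 45 and higher for 5 (30 and 3 after centring on the median), with a median of -0.39 and 12 at least 2-fold lower. They also split the fresh TII arrays. Hspa1a, the inducible HSP70, read 8.14, 10.48, 8.65 and 10.47 in fresh TII and 7.39, 7.18, 7.19 and 7.02 in fresh TI cells. Its partner Dnajb1 read 8.81, 9.80, 8.71 and 9.90 against 6.80 to 6.91, and Hsph1, a nucleotide exchange factor of HSP70, read 6.96, 8.03, 7.31 and 8.06 against 5.63 to 5.96. TII arrays 2 and 4 were the high ones for all 3, while the TI arrays were level. The cochaperone Dnaja1 read 8.89, 9.57, 8.95 and 9.63 in fresh TII cells, with the same order, and the phosphatase regulator Ppp1r15a read 9.73, 10.03, 9.68 and 10.18. All 5 were called and none overlapped with fresh TI cells. On the opposite side stood the small heat shock protein Cryab, at 5.43 to 5.74 in fresh TII and 9.31 to 9.64 in fresh TI cells, a difference of 3.92 ± 0.13, and its neighbour in function Hspb2 at 0.54 ± 0.06.

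The heat shock element, searched as GAANNTTC on both strands, was found in the 250 bases before the start of 9 of 37 chaperone promoters (24.3%), against 7.02% of all promoters. Among the 9 were Dnaja1, Dnajb1 and Hsph1. Ppp1r15a, which split the TII arrays too, was searched and had no match, and Hspa1a was not among the 9. Of the 26 searched promoters of chaperone genes lower in fresh TI cells 7 had the element (26.9%), near the share of the whole list. The 180 bases before the start of Hsph1 and Dnajb1, which were among the genes that split the TII arrays, are shown with that element in capitals. It begins 31 bases before the start of Hsph1 (chr12:10427188-10427367, plus strand) and 11 bases before that of Dnajb1 (chr19:41431142-41431321, minus strand).
Hsph1: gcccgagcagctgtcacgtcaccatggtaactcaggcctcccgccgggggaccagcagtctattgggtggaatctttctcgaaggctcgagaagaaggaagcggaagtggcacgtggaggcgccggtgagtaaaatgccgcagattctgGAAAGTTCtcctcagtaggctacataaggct
Dnajb1: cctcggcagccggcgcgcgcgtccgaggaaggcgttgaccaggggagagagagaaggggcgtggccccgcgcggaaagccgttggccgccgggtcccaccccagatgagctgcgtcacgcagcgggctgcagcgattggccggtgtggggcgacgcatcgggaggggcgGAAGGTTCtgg
No factor's binding was measured in these samples.

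Cholesterol synthesis, which feeds membranes and surfactant, was lower throughout the called genes. Of 17 measured genes 13 were lower and 0 higher, with a median of -0.52 (-0.57 after quantile normalization, where 1 was higher). Idi1 (89784), an isomerase of the isoprenoid steps, read 8.16, 8.64, 7.84 and 8.46 in fresh TII and 4.67, 5.21, 5.05 and 4.81 in fresh TI cells, a difference of -3.34 ± 0.16 with -0.58 on its other probe set. Msmo1, a sterol demethylase, read 8.13 to 8.29 against 5.55, 6.31, 6.47 and 5.75. The sterol sensor Insig1 read 9.87 to 10.16 against 7.31 to 7.56, and Sqle (squalene epoxidase) read 7.00 to 7.54 against 4.64 to 5.07. The CCAAT box, bound by NF-Y, was found on either strand in the 250 bases before the start of 11 of 14 promoters of the list (78.6%), against 34.3% of all promoters. The 180 bases before Idi1 (chr17:66547525-66547704, minus strand) and Msmo1 (chr16:29746933-29747112, plus strand) are shown with each CCAAT or its reverse complement in capitals.
Idi1: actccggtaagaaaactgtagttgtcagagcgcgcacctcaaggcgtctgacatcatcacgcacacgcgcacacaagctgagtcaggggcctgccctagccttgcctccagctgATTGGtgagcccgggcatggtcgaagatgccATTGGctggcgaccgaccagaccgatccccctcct
Msmo1: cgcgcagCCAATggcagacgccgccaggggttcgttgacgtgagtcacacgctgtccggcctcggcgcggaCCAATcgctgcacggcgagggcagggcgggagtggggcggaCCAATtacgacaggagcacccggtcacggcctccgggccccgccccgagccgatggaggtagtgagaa
These windows hold 2 matches before Idi1 and 3 before Msmo1. The sterol element, searched as CACCCCAC, was found in 1 of the 14 promoters (7.14%), against 2.24% of all promoters.

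Fatty acid and phospholipid genes were lower for 20 of 48 and higher for 11, and 11 of the 12 that were at least 2-fold apart were lower. Fasn (fatty acid synthase) read 9.66, 9.55, 10.03 and 9.61 in fresh TII and 6.80, 6.88, 7.06 and 6.89 in fresh TI cells. Acsl4, which activates arachidonic acid, read 9.18 to 9.31 against 6.28 to 6.58, with other probe sets at -3.26 and, not called, 0.16. The exception was Pla2g2a, a secreted phospholipase A2 of group IIA, at 4.62, 4.66, 4.80 and 4.58 in fresh TII and 8.04, 8.77, 7.82 and 7.41 in fresh TI cells. It differed by 3.35 ± 0.21, while Pla2g1b of group IB differed by -4.29 ± 0.23. Fatty acid oxidation genes were lower for 17 of 39 and higher for 6, with Cpt1a, the gate of mitochondrial import, at -1.30 ± 0.12 and Acadm at -1.41 ± 0.16. Of 37 eicosanoid and sphingolipid genes 17 were higher and 5 lower. Prostacyclin synthase Ptgis was higher by 1.19 ± 0.09, and the glucosylceramide synthase Ugcg differed by -1.75 ± 0.10, with 2 other probe sets not called.

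Defence genes were divided between the isolates. Of 60 cytokine and chemokine genes 21 were higher and 18 lower, or 18 and 19 after centring on the median. Defb4, a beta-defensin, read 12.02, 11.89, 11.64 and 11.75 in fresh TII and 8.44, 9.21, 9.48 and 7.25 in fresh TI cells, and the neutrophil chemokine Cxcl3 read 9.39 to 9.76 against 5.02, 6.79, 6.78 and 3.88. Both had the order of TI arrays seen for the surfactant genes. Il6 was level within groups, at 7.05 to 7.21 against 4.26 to 4.88, with -0.41 on its other probe set. Il1b was higher in fresh TI cells, at 8.12, 8.05, 7.90 and 6.98 against 5.94 to 6.5. Il18 also differed, by 1.27 ± 0.46 (not called at 0.85 on another probe set), but its call was lost without any 1 of TI arrays 1, 2 and 3 or of TII arrays 1, 2 and 4, at adjusted p of up to 0.09.

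Of 48 complement and coagulation genes 18 were higher and 10 lower, with 6 and 7 at least 2-fold apart. F3 (tissue factor) read 9.09 to 9.36 in fresh TII and 5.14 to 5.56 in fresh TI cells. The fibrinogen chain Fgg read 8.65, 8.92, 8.26 and 8.84 against 4.79, 5.28, 5.28 and 3.61. C4bpa, an inhibitor of complement C4b, differed by -2.89 ± 0.12 and complement C3 by -2.60 ± 0.13. On the TI side the lipoprotein Apoe, which macrophages also make, read 7.27 to 7.76 against 9.89, 9.81, 9.12 and 9.23. The probe set annotated to Crp differed by 3.23 ± 0.13, with 3.31 and 0.35 on the other Crp probe sets.

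Of 37 interferon and antigen presentation genes 19 were higher and 10 lower. The lower side held MHC class II: RT1-Da read 10.50 to 10.88 in fresh TII and 8.99, 9.0, 8.85 and 7.75 in fresh TI cells, and the invariant chain Cd74 read 10.90 to 11.13 against 9.37, 9.63, 9.29 and 8.22. RT1-Bb differed by -2.15 ± 0.27, although 1 of its other probe sets had the opposite call at 0.29 and 1 was not called at 0.01. The interferon regulator Irf1 differed by -2.16 ± 0.16. The higher side held the class I gene RT1-S3 at 1.08 ± 0.13 and Mx1, an antiviral GTPase, at 1.04 ± 0.21. The immunoproteasome subunits Psmb8 and Psmb9 were higher, by 0.92 ± 0.17 and 0.50 ± 0.09. RT1 genes are near-identical to one another, so their probe sets may share signal.

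Signalling pathways showed single genes far apart rather than shifts of whole lists. Of 38 TGF-beta, activin and BMP genes 11 were higher and 10 lower, or 9 and 11 after centring on the median or without TI array 4, and the 4 at least 2-fold apart were all lower. Bmp3 (25667) read 7.14, 6.82, 6.82 and 6.96 in fresh TII and 4.49, 4.26, 4.24 and 4.75 in fresh TI cells, and Bmp4, a ligand active in lung branching, read 7.20 to 7.60 against 5.62 to 6.01. Id2, a target of BMP signalling, read 8.28, 8.05, 7.98 and 7.88 against 5.82, 6.35, 6.35 and 4.75. Ltbp1, which tethers latent TGF-beta, differed by -1.53 ± 0.09. Of 24 Wnt and Notch genes 3 were higher and 6 lower. The Wnt receptor Fzd2 read 5.43, 5.16, 5.52 and 5.11 against 7.27, 7.42, 7.28 and 7.34, whereas Axin2, a target of Wnt signalling, differed by -0.59 ± 0.09. The Notch ligand Jag1 read 6.13 to 6.30 against 4.68 to 4.82, and the Notch target Hes1 differed by -0.63 ± 0.09.

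Of 45 growth factor and receptor tyrosine kinase genes 19 were higher and 7 lower. Mst1, a ligand of the RON receptor, differed by -1.93 ± 0.09, the EGF family ligand Areg by -1.62 ± 0.11 and Pdgfa by 0.95 ± 0.09. MAP kinase and phosphatase genes were lower for 12 of 33 and higher for 3. The ERK phosphatase Dusp6 read 8.52 to 8.93 in fresh TII and 6.03 to 6.80 in fresh TI cells, and the receptor tyrosine kinase inhibitor Spry1 differed by -0.99 ± 0.10. Of 54 nuclear receptor and steroid genes 15 were higher and 11 lower, or 11 and 13 with the spread of the arrays matched. Hsd11b1, which activates glucocorticoids, read 8.56 to 8.82 against 6.56 to 6.90, and the retinoic acid synthase Aldh1a2 read 3.98 to 4.09 against 4.94 to 5.47. Of 16 insulin-like growth factor genes 6 were higher and 2 lower, the adaptor Grb10 at -1.44 ± 0.10 and Igfbp3 at -0.86 ± 0.12.

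Of 35 endocytosis and coat genes 12 were lower and 5 higher, with a median of -0.07 that turned to 0.06 after quantile normalization, where 9 were higher and 9 lower. Lrp2 (megalin), a scavenger receptor of apical membranes, read 6.42 to 6.89 in fresh TII and 4.44 to 4.58 in fresh TI cells, and the GTPase Arf6 read 8.81 to 9.16 against 6.85, 7.49, 7.68 and 6.89. Of 39 exocytosis genes 12 were higher and 6 lower, or 7 and 5 with the spread of the arrays matched, with 0 at least 2-fold apart. Rab27a and Rab3a, GTPases of regulated secretion, differed by -0.91 ± 0.13 and -0.79 ± 0.14. Of 24 lysosome genes 8 were lower and 5 higher, but 7 and 8 without TI array 4. Among them the acid lipase Lipa was higher by 1.26 ± 0.22 and the protease Ctsc lower, at -1.88 ± 0.15.

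Cell division genes were near balance, 8 of 33 higher and 9 lower, or 5 and 9 after centring on the median. The replication clamp Pcna read 9.10 to 9.16 in fresh TII and 7.35, 7.73, 7.72 and 7.05 in fresh TI cells, and Stmn1, a microtubule regulator of dividing cells, differed by -1.76 ± 0.26. Cdkn2b, a cyclin-dependent kinase inhibitor, read 5.04 to 5.36 against 6.54 to 7.08. The cyclins Ccnd2 and Ccnd1 went opposite ways, by 1.19 ± 0.18 and -0.92 ± 0.09, and another Ccnd1 probe set had the opposite call at 0.23 and 1 was not called at -0.13. Ribosomal protein and translation genes were lower for 36 of 52 and higher for 1, with a median of -0.45. The count was 27 and 2 with the spread of the arrays matched and 24 and 3 after quantile normalization, where the median was -0.22. Respiratory chain genes were lower for 17 of 40 and higher for 3, but 9 and 6 after quantile normalization, where their median turned from -0.20 to 0.02.

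Of 79 detoxification enzymes 35 were higher and 22 lower, but 14 and 21 of 48 without the dimmer probe sets, where the median turned from 0.19 to -0.15. Among all 79, 15 of the 18 that were at least 2-fold apart were lower. Maob (25750), a mitochondrial amine oxidase, read 7.33, 7.25, 7.36 and 7.04 in fresh TII and 3.74, 4.51, 4.28 and 3.74 in fresh TI cells. Ephx1, an epoxide hydrolase, read 8.87 to 9.24 against 6.04 to 6.24, and the glutathione transferase Gsta1 read 9.18 to 9.46 against 6.13 to 6.49. Its relative Gsta4, which clears lipid aldehydes, went the other way, at 6.80, 6.31, 6.53 and 6.21 against 9.19, 9.09, 9.16 and 8.94. The cytochrome Cyp2b2 read 9.35 to 9.83 against 11.46 to 11.60. Near-identical relatives in these families can share probe signal. Antioxidant genes were lower for 19 of 41 and higher for 13, with haem oxygenase Hmox1 at -2.13 ± 0.42, the mitochondrial dismutase Sod2 at -1.38 ± 0.17 and the glutathione peroxidases Gpx1 and Gpx3 at 1.27 ± 0.10 and 1.20 ± 0.18.

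Arginine, pterin and polyamine enzymes were lower for 17 of 44 and higher for 11, or 20 and 5 after centring on the median. Gch1, the first enzyme of tetrahydrobiopterin synthesis, differed by -2.11 ± 0.24, with 2 of its other probe sets not called. The urea cycle enzyme Ass1 read 8.25 to 8.39 in fresh TII and 6.05 to 6.32 in fresh TI cells, and the ornithine aminotransferase Oat read 8.24 to 8.48 against 6.25 to 6.54. Of 10 circadian clock genes 5 were lower and 1, Bmal1 at 0.48 ± 0.09, was higher. The clock repressor Per2 read 5.63, 5.14, 5.53 and 4.91 in fresh TII and 3.07 to 3.23 in fresh TI cells. Nr1d2 (REV-ERB beta) read 5.69, 4.87, 5.83 and 4.83 against 3.75 to 3.84, and Dbp, a clock output factor, read 8.25, 7.25, 8.30 and 7.33 against 7.04, 6.46, 6.26 and 6.72. For these 3, TII arrays 1 and 3 were above arrays 2 and 4, the reverse of the heat shock genes.

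The spread within the groups was uneven. The median SD of a gene was 0.14 over the TI arrays and 0.087 over the TII arrays, and 3514 of 4736 genes varied more among TI arrays. An SD over 0.5 was found for 77 genes in fresh TI and 12 in fresh TII cells, and TI array 4 was the farthest from the median for 66 of the 77. Among fresh TI cells the widest genes included Ly6i, a leukocyte-type surface antigen, at 8.71, 9.65, 9.59 and 6.97, the lipase Lpl at 5.92, 6.78, 6.79 and 4.89, and leukotriene A4 hydrolase Lta4h at 8.70, 9.31, 9.23 and 7.33. None of these 3 was called between the groups, although Ly6i was called at -2.34 without TI array 2, at -2.32 without TI array 3 and at -2.04 with the 8 fresh arrays alone, an intensity trend or a replicate block, and at -1.54 with array weights. Another Lpl probe set was called higher at 1.05. TI array 4 was the lowest in each, as for surfactant, macrophage and vimentin signal, while Pdpn and Ager were level on that array. Without TI array 4, Lpl was higher by 1.02 (adjusted p = 0.0209).

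Among fresh TII cells the arrays fell into pairs for several genes. Besides the heat shock genes, the 5S ribosomal RNA control was higher on TII arrays 2 and 4, at 6.14, 7.62, 6.17 and 7.5, and was 6.22 to 6.39 in fresh TI cells. Mat2a, which makes the methyl donor, read 6.05, 7.03, 6.52 and 6.88 and was higher on the same arrays. Cyp2a3 read 9.08, 7.96, 8.74 and 8.13 and the peptidase Dpp4 read 6.91, 5.93, 7.36 and 5.90, with arrays 1 and 3 higher. The labels give no handling detail that separates these arrays, and the part of RNA processing in the split was not tested. Cyp2a3 was called at -2.68 ± 0.20. Dpp4 was not called, but without TII array 2 or TII array 4 it differed by -0.70 (adjusted p = 0.0395) and -0.71 (adjusted p = 0.0334). The prostaglandin transporter Slco2a1 was high on TII array 3 alone, at 5.94, 5.84, 6.86 and 5.83, and was higher in fresh TI cells by 0.49 without it (adjusted p = 0.00116), against 0.24 ± 0.19, not called, with it.

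**Figure D5:**
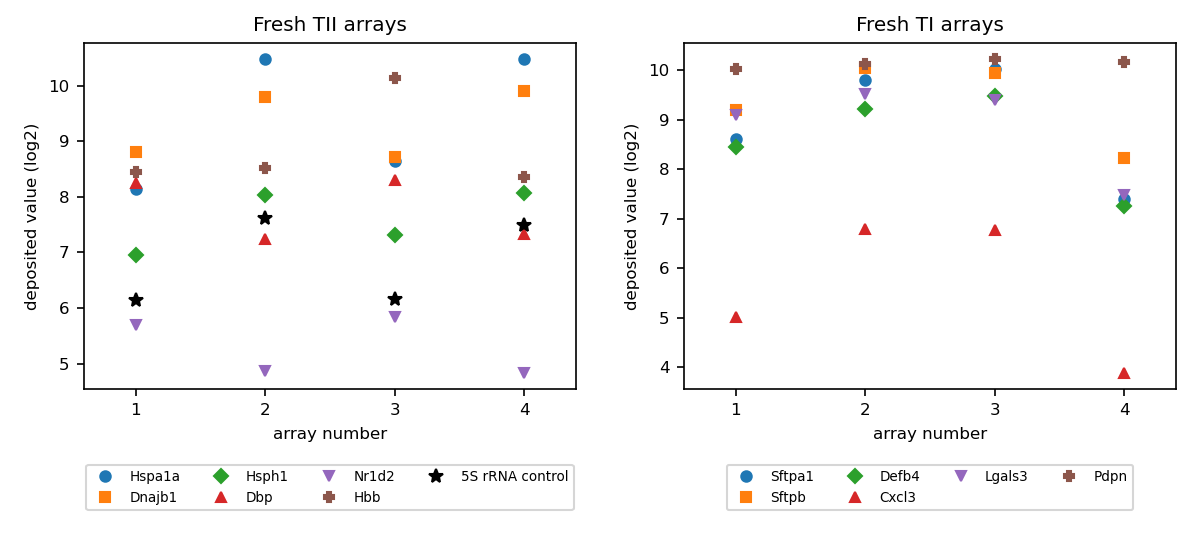
Deposited log2 value (y axis) by array number (x axis) of genes that differ among the fresh TII arrays (left) and among the fresh TI arrays (right); each symbol is 1 gene or control. TII arrays 2 and 4 are higher for Hspa1a, Dnajb1, Hsph1 and the 5S ribosomal RNA control and lower for Dbp and Nr1d2, TII array 3 is higher for Hbb, and TI array 4 is lowest for every gene drawn on the right except Pdpn.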

How the data were processed

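The values were log2 signals per probe set as the authors deposited them. They ranged from 1.37 to 13.16. The log base was read from their range. Per the labels, total RNA was used and cDNA and biotin labelling came from commercial kits. Summarization and normalization are not given in the sources used here. Of 8799 probe sets, 59 controls were left out of tests. The other 8740 were fitted with limma 3.58.1 in R 4.3.3 (lmFit and eBayes, 3 group means, all 11 arrays, two-sided), after the script was tested on simulated data. The platform annotation gave 1 gene to 7006 probe sets, several to 308 and none to 1426, and the brightest probe set stood for each of 4736 genes. The 55 lists held 3132 names, of which 2101 were measured.

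The members and lists were chosen with earlier results of these data known. Genes were named as the 10 highest and 10 lowest called genes without overlap, the type I and type II markers, up to 5 called members per other list with the greatest differences and up to 2 of the opposite direction, and the 10 genes with the highest SD in each group among those with a mean of 6 or more. Other probe sets are given or counted where called the other way or not called. Alternatives were quantile, median and SD scaling, array weights, an intensity trend, the fresh arrays alone, a replicate block, a filter on dim probe sets, the mean over probe sets, a stricter threshold and leaving out each array.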

Additional observations from a re-analysis of the deposited data

Results flagged for a closer look

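Single arrays stood apart from the other 3 of their group for 29 of the 658 gene groups examined (4.4%), by the ratio of the gap to the group's range (above Dixon's critical value for 4 samples). Chance gives about 1 in 20 such groups. TII array 3 was the array that stood apart in 13 of the 29, TII array 2 in 5, TII array 1, TI array 2 and TI array 4 in 3 each, and TII array 4 in 2.

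On TII array 3 Sema3a read 2.44 against 2.68 to 2.70, Sec14l3 read 9.23 against 9.51 to 9.56 and Cd79b read 5.45 against 5.50 to 5.51 on the others of its group. There Hbb read 10.14 against 8.36 to 8.52, Hbb-b1 read 9.64 against 8.08 to 8.14 and Gng11 read 4.12 against 3.80 to 3.84. There Rgs4 read 3.38 against 3.53 to 3.54, Sparcl1 read 6.67 against 6.08 to 6.14 and Casp1 read 6.34 against 6.21 to 6.23. There Ephx1 read 8.87 against 9.20 to 9.24, Nr1d1 read 8.12 against 7.84 to 7.88 and Ass1 read 8.39 against 8.25 to 8.26. There Slco2a1 read 6.86 against 5.83 to 5.94. On TII array 4 Sftpb read 12.59 against 12.62 to 12.63 and Ms4a2 read 3.02 against 3.07 to 3.08 on the others of its group. On TI array 4 Cebpd read 6.09 against 6.39 to 6.43, RT1-Da read 7.75 against 8.85 to 9.0 and RT1-Db1 read 6.92 against 7.72 to 7.85 on the others of its group. On TII array 1 Klrb1a read 4.21 against 4.30 to 4.31, P2ry2 read 6.82 against 6.58 to 6.61 and Gata1 read 5.53 against 5.74 to 5.78 on the others of its group. On TII array 2 S100b read 6.42 against 6.36 to 6.37, Cplx1 read 5.12 against 5.42 to 5.45 and Gjb2 read 4.91 against 4.79 to 4.81 on the others of its group. There Ptpn7 read 4.44 against 4.22 to 4.25 and Pdha1 read 7.89 against 7.79 to 7.81. On TI array 2 Sptan1 read 7.85 against 7.93 to 7.94, Cplx1 read 5.91 against 5.97 to 5.98 and Kcnq1 read 4.94 against 5.20 to 5.24 on the others of its group.

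The widest gaps were those of the globins Hbb and Hbb-b1 and the prostaglandin transporter Slco2a1 on TII array 3, and of the MHC class II chain RT1-Da on TI array 4. Most of the others were narrower than 0.35 on the log2 scale and stood apart because the remaining 3 arrays lay close together.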

How the results depend on the processing

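Probe sets at least 2-fold lower outnumbered those at least 2-fold higher under each alternative that counted them, which leaves out the mean of probe sets per gene. Counts that hold small differences moved. At an adjusted p under 0.01, 1796 probe sets and 916 genes were higher and 1702 genes were called. Without the dimmer probe sets, 2671 probe sets were called, 1337 of them higher. Of the 2700 genes then tested 1590 were called, 810 of them higher. The share of called genes that were higher fell from 60.9% to 50.9%. Leaving out 1 array at a time gave 3944 to 4986 probe sets and 2094 to 2648 genes called, of which 1202 to 1633 were higher and 892 to 1015 lower. The 8 fresh arrays alone gave 4746 probe sets. No label says whether a replicate number links a TI array to a TII array. Deviations of same-number arrays correlated between -0.20 and 0.28 (4 pairs), against -0.27 to 0.22 where numbers differed (12 pairs). These ranges overlap and rest on few arrays, so they cannot decide whether the numbers mark pairs. With the number as a block, 4787 probe sets and 2562 genes were called. Over 329 named genes and 18 alternatives, 5691 of 5865 values kept their side of the threshold. Direction was compared only where either fit made a call. Among the other values 151 lost a call, 22 gained one and 1 turned: Egr4 was -0.03 as the mean of its probe sets. Of 315 called named genes, 280 kept call and direction under every alternative that tested them. After quantile normalization Nkx2-1 was not called at -0.24. The number of arrays limits the precision.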

Other observations

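Calcium and kinase signalling genes divided between the isolates, 21 of 66 higher in fresh TI cells and 17 lower, or 18 and 18 after centring on the median. Atp2a3, a calcium pump of the endoplasmic reticulum, read 8.90, 8.50, 8.43 and 8.58 in fresh TII and 7.06, 6.75, 6.71 and 7.00 in fresh TI cells, a difference of -1.72 ± 0.11. The kinase Prkcd was higher by 0.88 ± 0.08, with 1.20 on its other probe set. Among guidance genes, 13 of 27 were higher and 2 lower, or 6 and 2 with the spread of the arrays matched or after quantile normalization. The lower ones were the secreted ligand Slit3 at -0.98 ± 0.08 and the receptor Nrp1 at -0.97 ± 0.12.

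Of 52 glycolysis and tricarboxylic acid cycle genes 12 were higher and 19 lower, or 7 and 20 after centring on the median and 7 and 19 without TII array 3. Gpt, which links alanine to pyruvate, read 8.69, 8.78, 8.67 and 8.65 in fresh TII and 7.30, 7.20, 7.29 and 7.19 in fresh TI cells. Pdha1, a subunit of pyruvate dehydrogenase, was higher by 0.98 ± 0.09, with 0.96 on its other probe set. Of 69 developmental transcription factor genes 17 were higher and 12 lower, or 10 and 13 with the spread of the arrays matched. The antioxidant regulator Nfe2l2 read 7.43, 7.42, 6.91 and 7.17 in fresh TII and 5.39, 5.76, 5.93 and 4.84 in fresh TI cells. Of 28 apoptosis genes 6 were higher and 6 lower, with the inflammatory caspase Casp1 at 0.80 ± 0.14 and the stress gene Gadd45a at -0.93 ± 0.14.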
